A study of Homo sapiens with 4 samples.

Results

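The surface of the leukaemic stem cell in chronic myeloid leukaemia (CML) has been described by markers other than CD34, and 10 of these are followed here in imatinib-sensitive and imatinib-resistant cells. They were taken by gene symbol, from a choice made with earlier results of these data known, as IL2RA, DPP4, IL1RAP, CD93, CD36, PROM1, ENG, THY1, CD99 and CD70. Rows were found for 8 of the 10 among the 32673 genes measured, with 1 row for each, and DPP4 and THY1 were not analysed here beyond their partner genes. Of the 8, 5 (IL2RA, IL1RAP, CD93, ENG and CD99) had a mean of at least 0.5 FPKM (a fragment count divided by transcript length and library size) over the 4 libraries and were tested, and CD36, CD70 and PROM1 lay below that level and are described by their values.

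RNA was sequenced in TF1-BCR-ABL cells, an established line of TF1, a human erythroleukaemia line that grows on a cytokine, made to carry the BCR-ABL fusion kinase of CML by retroviral infection. The sensitive cells, TF1-BA, and the resistant cells, TF1-BAR, were each represented by 2 libraries, made from 10000000 cells per replicate. All 4 were cultured in RPMI-1640 with 10% fetal bovine serum and GM-CSF, at 2 ng/ml by the labels (the methods of the study give another concentration). TF1-BAR cells were additionally kept in 2 uM imatinib, the inhibitor of the ABL kinase, and whether it was present when RNA was taken is not stated. TF1-BAR was derived from TF1-BA by months of continuous exposure to imatinib, so that resistance, the presence of the drug and the time in culture cannot be told apart, and the labels give the TF1-BAR libraries a vector title without saying what vector was meant. Nothing in the sources says whether either line is 1 clone, or that replicates came from separate cultures, so the p-values measure only the spread between these libraries, which may be technical.

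Several of these proteins are receptor subunits. IL2RA (CD25) is the alpha chain that gives the interleukin-2 receptor its high affinity, and IL1RAP is the accessory chain without which the receptors for interleukin-1, interleukin-33 and interleukin-36 do not signal. ENG (endoglin, CD105) is a co-receptor for ligands of the TGF-β and BMP family, best known from endothelium and present on early erythroid progenitors. CD36 takes up fatty acids and binds thrombospondin, CD93 is a C-type lectin-like protein of stem cells and endothelium, PROM1 (CD133) is a membrane glycoprotein of cell protrusions, CD99 is an adhesion protein, CD70 is the ligand of CD27, DPP4 (CD26) is a peptidase that trims chemokines, and THY1 (CD90) is a GPI-anchored ligand of integrins. IL2RA, IL1RAP, CD93, DPP4 and CD36 have all been used to separate CML stem cells from other CD34+ cells.

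The libraries held between 15465497 and 18042299 fragments, as recovered from the steps of the FPKM values, of which the listed genes carried 99.2% in each. The replicates correlated at 0.983 in TF1-BA and 0.979 in TF1-BAR (Pearson, log2 scale, across genes, which are not independent replicates) and differed by more than counting noise. All 10 markers of erythro-myeloid progenitors examined, among them GATA1, GATA2, KIT and EPOR, passed the filter, with summed levels from 470 to 621 FPKM, so the markers of the labelled cell type were present. Of 23 markers of other blood, endothelial and stromal cells in the table, 10 passed the filter. CDH5, CD79B, CSF1R and LUM were called higher and CD3D lower in TF1-BAR, where 3.05% and 1.69% of all tested genes were called, CSF1R and LUM having passed the filter only through their TF1-BAR level. CSF1R, a receptor of monocytes, measured 0.215 and 0.326 FPKM in TF1-BA and 1.34 and 1.32 FPKM in TF1-BAR, while the monocyte markers CD14, CD163 and FCGR3A had at most 0.112 FPKM in any library. The part of such cells in the results was not tested.

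The stretches from which transcription of the moved members begins differ in their make-up. Those of IL2RA, IL1RAP, CD36 and ENG are shown, since these members differed between the lines by at least 1 test. CD36 lay below the level for the main test and differed only in alternative fits. Each runs from 250 bases before to 50 bases after the RefSeq start (GRCh38.p14), 5′ to 3′ on the gene's strand, with CG dinucleotides in capitals.
IL2RA, chr10:6062318-6062617, minus strand: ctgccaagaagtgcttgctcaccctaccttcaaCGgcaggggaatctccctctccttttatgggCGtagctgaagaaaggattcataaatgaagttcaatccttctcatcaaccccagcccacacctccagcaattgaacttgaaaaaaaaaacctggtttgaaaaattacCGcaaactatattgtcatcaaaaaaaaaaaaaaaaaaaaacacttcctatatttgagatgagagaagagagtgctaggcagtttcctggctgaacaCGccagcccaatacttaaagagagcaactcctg
IL1RAP, chr3:190513835-190514134, plus strand: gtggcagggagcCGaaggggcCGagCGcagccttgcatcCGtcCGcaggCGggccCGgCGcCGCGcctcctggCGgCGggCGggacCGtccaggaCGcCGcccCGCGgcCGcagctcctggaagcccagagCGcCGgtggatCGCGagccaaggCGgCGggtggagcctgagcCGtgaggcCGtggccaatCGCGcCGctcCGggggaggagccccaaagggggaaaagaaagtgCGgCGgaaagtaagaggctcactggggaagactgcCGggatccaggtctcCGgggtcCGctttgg
CD36, chr7:80638392-80638691, plus strand: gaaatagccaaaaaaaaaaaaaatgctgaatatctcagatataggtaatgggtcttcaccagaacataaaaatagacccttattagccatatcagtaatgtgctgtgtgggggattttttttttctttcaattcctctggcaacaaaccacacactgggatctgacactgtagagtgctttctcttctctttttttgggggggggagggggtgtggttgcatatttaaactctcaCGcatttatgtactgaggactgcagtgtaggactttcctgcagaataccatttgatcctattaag
ENG, chr9:127854609-127854908, minus strand: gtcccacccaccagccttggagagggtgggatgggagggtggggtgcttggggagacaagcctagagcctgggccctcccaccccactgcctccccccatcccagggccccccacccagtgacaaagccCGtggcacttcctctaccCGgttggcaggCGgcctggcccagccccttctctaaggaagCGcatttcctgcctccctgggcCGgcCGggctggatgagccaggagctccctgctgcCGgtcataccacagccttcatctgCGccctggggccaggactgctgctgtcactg

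The IL1RAP stretch was 73.7% G and C with 36 CG dinucleotides, and that of ENG 68.3% with 8. IL2RA had 41.7% with 4, and CD36, shown at the start of its MANE Select transcript, 1 of 6 annotated, had 39.7% with 1. Across the 35116 promoters of the same length the median was 58.7% with 14 CG, so that 1 member that was lower in TF1-BAR lay above the median and the other pair lay below it. Of the 6 motifs searched on both strands, only the GC box (GGGCGG, held by 45.0% of all promoters) was found in these 4 windows, in IL1RAP, at −173 to −168 on the gene's strand and −153 to −148 on the other. GATAA (22.7% of all promoters), TTCNNNGAA (7.7%), CCGGAAG (10.3%), CACGTG (7.3%) and TATAAA (11.5%) were not among the letters of these windows, although 3 of the other CD36 windows held GATAA, 2 TATAAA and 1 TTCNNNGAA. CD93, CD70 and THY1 had no entry in the set of promoters used here.

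At the level of the whole set, TF1-BAR cells had less IL2RA and IL1RAP RNA and more ENG RNA than TF1-BA cells. CD36, which lay below the level for the main test, was also lower by its values. CD93 and CD99 did not pass the test, and PROM1 and CD70 were at the limit of detection. A gene counts as differentially expressed where its log2 fold change is 1 or more in size and its adjusted p lies under 0.05, by limma on log2(FPKM + 0.5) over all 15519 genes tested, a scale that understates the change of low genes. IL2RA was called lower, and 0 members were called higher by limma (1 at an unadjusted p under 0.05, and 0 by limma voom on recovered fragments), where 4.75% of all tested genes were called, 3.05% higher and 1.69% lower. By the adjusted p alone, 2 of the 5 tested members were lower (IL2RA and IL1RAP) and 1 was higher (ENG), against 10.5% and 16.3% of all genes. The ranges of the groups were apart for 4 of the 5, all but CD93, where 69.3% of all genes had groups that did not overlap. An exact permutation test of 2 libraries against 2 cannot give a p below 0.333. In bulk RNA, fewer cells with a transcript and less of it per cell cannot be told apart.

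**Figure D1:**
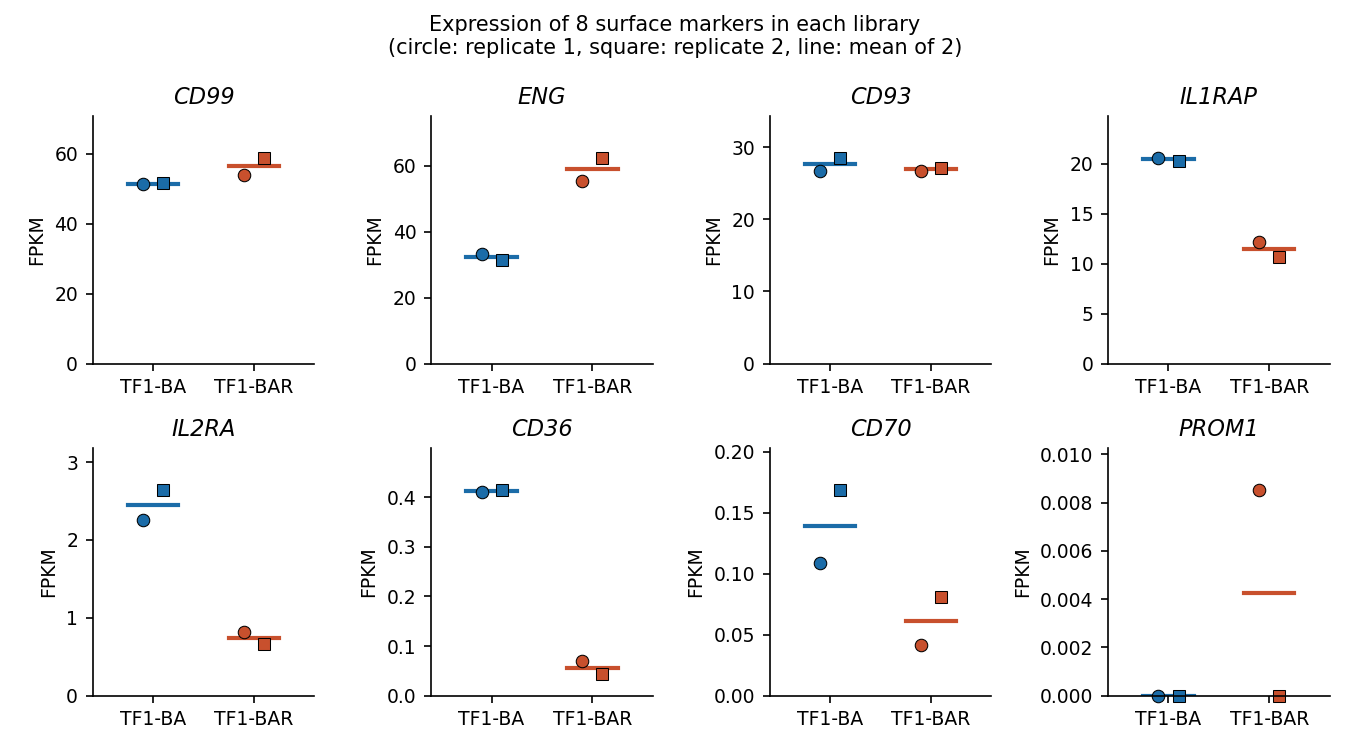
FPKM (vertical axis, linear, starting at 0, a scale for each gene) of the 8 surface markers in the 2 TF1-BA and the 2 TF1-BAR libraries. Circles are replicate 1, squares replicate 2, and lines the mean of 2. IL1RAP, IL2RA and CD36 lie lower and ENG higher in both TF1-BAR libraries, the CD93 groups overlap, and PROM1 rests on 1 fragment in 1 library.

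The levels spanned a wide range in both lines. In TF1-BA the order was CD99, ENG, CD93, IL1RAP, IL2RA, CD36, CD70 and PROM1, and the ranges of neighbours in that order did not overlap, down to PROM1, which had 0 fragments. In TF1-BAR, ENG (55.6 and 62.6 FPKM) and CD99 (53.8 and 58.9 FPKM) overlapped at the top, and CD36 and CD70 overlapped at the bottom. CD99 and ENG stood at percentiles 95.6 and 94.7 of the tested genes by mean level, CD93 at 90.1, IL1RAP at 81.8 and IL2RA at 26.0, so that the member called differentially expressed was the lowest of the 5 that were tested.

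IL2RA (ENSG00000134460, minus strand of chromosome 10, 6010689 to 6062325, GRCh38, 8 exons in the MANE Select transcript) measured 2.25 and 2.65 FPKM in the TF1-BA libraries and 0.819 and 0.666 FPKM in the TF1-BAR libraries, from 129, 130, 41 and 34 fragments. Both TF1-BAR libraries lay well under both TF1-BA libraries. The means were 2.45 ± 0.280 FPKM (SD, n = 2) and 0.743 ± 0.108 FPKM (SD, n = 2), a level 3.30 times higher in TF1-BA. The fitted log2 fold change of TF1-BAR against TF1-BA was −1.25 (SE 0.147, adjusted p = 0.00884). The gene has the fewest fragments of the tested members, and its log2 fold change stayed between −1.34 and −1.15 when 1 library was left out. The adjusted p was then 0.0636 or 0.0760 without the first or second TF1-BA library, fits in which 144 and 42 genes were called in all in place of 737, and 0.0511 without the second TF1-BAR library. The direction was the same in all 15 alternatives, from −1.71 to −0.89, and with a pseudocount of 1 FPKM it was −0.98, short of the fold threshold.

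IL2RA lies on a chromosome that was lower as a whole in TF1-BAR. The median log2 fold change of the 593 tested genes of chromosome 10 was −0.35, and 20.7% of them were above 0. Within 1 Mb of IL2RA, 14 of 19 tested genes lay below 0, 8 had an adjusted p under 0.05 downward and 2 upward, beside 10.5% and 16.3% of all genes. Its neighbour IL15RA, 32.5 kb away, the alpha chain of the interleukin-15 receptor, fell from 8.05 and 6.89 FPKM to 3.37 and 3.83 FPKM (log2 fold change −0.96, adjusted p = 0.00901, and −0.60 with an adjusted p of 0.0264 once the medians of the chromosomes are aligned). RBM17, a splicing factor 26.7 kb away on the other side, had a log2 fold change of −0.25 (adjusted p = 0.0519). With the chromosome medians of the libraries aligned, an alternative chosen after seeing the data, IL2RA had a log2 fold change of −0.89 (SE 0.144, adjusted p = 0.0181) and no longer reached the fold threshold.

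**Figure D2:**
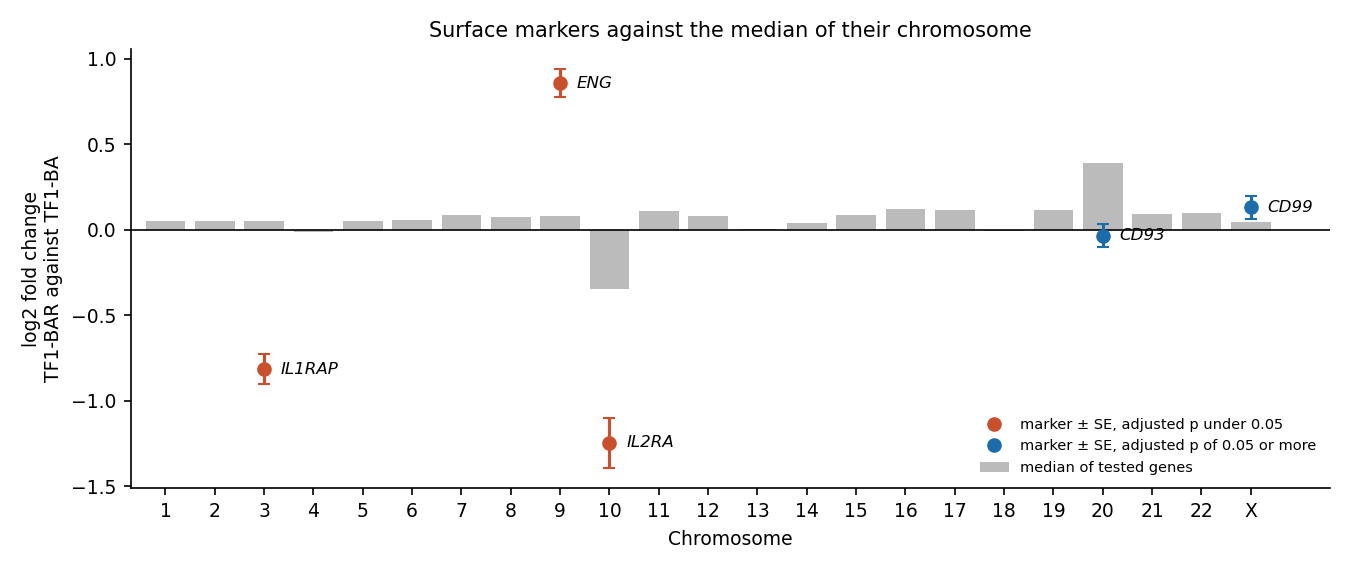
Log2 fold change of TF1-BAR against TF1-BA (vertical axis) of the 5 tested surface markers (points, ± SE) at their chromosome, beside the median of the tested genes of each chromosome (grey bars). Red points have an adjusted p under 0.05 and blue points do not. The chromosome 10 median is −0.35 with IL2RA below it at −1.25, and the chromosome 20 median is 0.39 with CD93 at −0.04.

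Of the other chains of the interleukin-2 receptor, IL2RB was called lower and IL2RG did not pass the test. IL2RB, the beta chain that carries the signal with the common gamma chain, measured 4.06 and 4.97 FPKM in TF1-BA and 1.48 and 1.89 FPKM in TF1-BAR. Its log2 fold change was −1.20 (SE 0.150, adjusted p = 0.00981), and it lies on chromosome 22, away from IL2RA. IL2RG, the common gamma chain, was the most abundant of the chains, at 28.7 and 31.3 FPKM against 27.8 and 28.2 FPKM (log2 fold change −0.10, adjusted p = 0.351). IL7R, which pairs with the same gamma chain for interleukin-7, had 53 and 42 fragments in TF1-BA and 0 in both TF1-BAR libraries, at least 15.0-fold lower when each of these is set to the floor of 3 fragments.

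Downstream of these chains the direction was not shared. JAK3, the kinase bound to the gamma chain, rose from 7.85 and 8.56 FPKM to 15.0 and 15.6 FPKM (log2 fold change 0.86, adjusted p = 0.00597). SOCS3, a feedback inhibitor of cytokine signalling, rose from 16.4 and 13.1 FPKM to 25.3 and 27.8 FPKM (log2 fold change 0.83, adjusted p = 0.0129), and CISH, an inhibitor induced through STAT5, had a log2 fold change of 0.46 (adjusted p = 0.0338). STAT5A and STAT5B, the transcription factors of this receptor, had log2 fold changes of 0.08 and 0.07 (adjusted p = 0.332 and 0.419). The ligand IL2 had 1 fragment in all, and IL15 had 11 and 1 fragments in TF1-BA against 18 and 19 in TF1-BAR. Of the 15 genes listed around IL2RA, 10 were tested, 1 was called lower (1.69% of all genes), 3 had an adjusted p under 0.05 upward and 2 downward (16.3% and 10.5% of all genes), and the median log2 fold change was 0.02, beside 0.07 for all tested genes.

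IL1RAP (ENSG00000196083, plus strand of chromosome 3, 190514051 to 190659750, 12 exons) measured 20.6 and 20.3 FPKM in TF1-BA and 12.2 and 10.6 FPKM in TF1-BAR, from 4299, 3623, 2224 and 1977 fragments. The groups stood apart and the TF1-BA libraries lay close together. Mean levels were 20.4 ± 0.245 FPKM (SD, n = 2) and 11.4 ± 1.11 FPKM (SD, n = 2), a log2 fold change of −0.82 (SE 0.0884, adjusted p = 0.00766), short of the fold threshold. The difference had the same direction in all 15 alternatives, and the adjusted p was 0.0735 and 0.0740 without the first and the second TF1-BA library. The median of chromosome 3 was 0.05, and the nearest tested genes did not fall with it. CCDC50, 669.3 kb away, was called higher (log2 fold change 1.34, adjusted p = 0.00785), and P3H2, 391.6 kb away on the other side, had a log2 fold change of 0.63 (adjusted p = 0.0537).

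Of the ligand-binding receptors that work with IL1RAP or resemble it, IL18R1 and IL1RL1 were tested and were higher in TF1-BAR. These genes overlap on the plus strand of chromosome 2, from 102311502 to 102352037 for IL1RL1 and from 102311529 to 102398775 for IL18R1. Reads of the pair may therefore be shared, and their rises may not be separate. IL18R1, the ligand-binding chain of the interleukin-18 receptor, measured 1.71 and 1.74 FPKM in TF1-BA and 4.90 and 5.90 FPKM in TF1-BAR and was called higher (log2 fold change 1.40, SE 0.118, adjusted p = 0.00534). Its partner IL18RAP, the relative of IL1RAP in that receptor, lay below the filter, with 2 and 5 fragments in TF1-BA and 36 and 41 in TF1-BAR. limma voom on the fragments, an alternative to the main test, gave IL18RAP a log2 fold change of 3.49 (adjusted p = 0.000317). IL18RAP passed the filter of that fit, a mean of 10 fragments, only through the TF1-BAR libraries in which it was high.

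IL1RL1, the interleukin-33 receptor that needs IL1RAP, rose from 1.46 and 1.53 FPKM to 2.75 and 3.09 FPKM (log2 fold change 0.78, adjusted p = 0.0123). IL1R1, the signalling receptor for interleukin-1, had 23 and 24 fragments in TF1-BA and 23 and 46 in TF1-BAR, under the filter. Both interleukin-1 ligands were lower in TF1-BAR, whereas IL18 had a log2 fold change of −0.20 (adjusted p = 0.114). IL1A was called lower, from 13.3 and 14.6 FPKM to 5.74 and 7.47 FPKM (log2 fold change −1.03, adjusted p = 0.0110). IL1B, the more abundant ligand, fell from 94.2 and 89.0 FPKM to 67.2 and 72.7 FPKM (log2 fold change −0.39, adjusted p = 0.0204). IL1RN, the antagonist that occupies the receptor without signal, had 3 and 8 fragments in TF1-BA against 44 and 39 in TF1-BAR, a log2 fold change of 3.05 by limma voom (adjusted p = 0.000539), and it likewise passed that filter only through TF1-BAR.

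Among the proteins that carry the signal from IL1RAP, IRAK1 (log2 fold change 0.64, adjusted p = 0.00931), TAB2 (0.65, adjusted p = 0.0160), the adaptor MYD88 (0.42, adjusted p = 0.0440, but 0.0607 with the chromosome medians aligned) and the inhibitory receptor SIGIRR (0.39, adjusted p = 0.0198) were higher in TF1-BAR below the fold threshold. IRAK4, the first kinase of the series, had a log2 fold change of 0.00 (adjusted p = 0.983). Of the 23 genes listed around IL1RAP, 20 were in the table and 16 tested, of which 1 was called higher and 1 lower (3.05% and 1.69% of all genes), 6 had an adjusted p under 0.05 upward and 2 downward, beside 16.3% and 10.5% of all genes, with a median log2 fold change of 0.18.

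ENG (ENSG00000106991, minus strand of chromosome 9, 127815012 to 127854756, 15 exons) went the other way, with 33.3 and 31.4 FPKM in TF1-BA and 55.6 and 62.6 FPKM in TF1-BAR, from 2364, 1913, 3448 and 3958 fragments. Both TF1-BAR libraries exceeded both TF1-BA libraries by more than the spread within either line. Its means were 32.4 ± 1.32 FPKM (SD, n = 2) and 59.1 ± 4.94 FPKM (SD, n = 2), 1.83 times higher in TF1-BAR, with a log2 fold change of 0.86 (SE 0.0822, adjusted p = 0.00626), under the fold threshold. In all 15 alternatives the sign was the same, and the adjusted p was 0.0596 and 0.0674 without the first and the second TF1-BA library. An antisense gene, AL162586.1, overlaps ENG with 51 and 42 fragments in TF1-BA and 58 and 63 in TF1-BAR, and the strand setting of the counting is not given in the sources used here, so reads of the pair may be shared. The neighbour FPGS, 0.7 kb away, had a log2 fold change of 0.02 (adjusted p = 0.856), and the median of chromosome 9 was 0.08.

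Of the receptors that act with ENG, the one called was ALK1. ACVRL1, which encodes ALK1, the receptor for BMP9 that ENG assists, measured 0.473 and 0.308 FPKM in TF1-BA and 1.67 and 2.09 FPKM in TF1-BAR (log2 fold change 1.42, SE 0.186, adjusted p = 0.0107). It passed the filter through its TF1-BAR level. TGFBR2, the ligand-binding TGF-β receptor, rose from 9.26 and 10.0 FPKM to 13.04 and 14.9 FPKM (log2 fold change 0.51, adjusted p = 0.0219). TGFBR1 and TGFBR3 had log2 fold changes of 0.36 and 0.33 (adjusted p = 0.144 and 0.156), and BMPR2 −0.23 (adjusted p = 0.173). Of the ligands, TGFB1 was abundant in both lines, at 107 FPKM in TF1-BA and 109 FPKM in TF1-BAR on average (log2 fold change 0.02, adjusted p = 0.871), and TGFB3, below the filter, had 46 and 57 fragments against 15 and 10. GDF2 (BMP9) and BMP10, the ligands of ALK1, had at most 4 fragments in any library.

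ID1 and ID3, which are induced by BMP signalling, were lower in TF1-BAR. ID1, an inhibitor of differentiation, measured 83.7 and 78.6 FPKM in TF1-BA and 49.9 and 59.4 FPKM in TF1-BAR (log2 fold change −0.57, adjusted p = 0.0195), on chromosome 20, whose genes were mostly higher, and with the chromosome medians aligned the log2 fold change was −0.97. ID3, its relative, measured 3.24 and 3.06 FPKM against 0.706 and 1.66 FPKM and was called lower (log2 fold change −1.18, SE 0.288, adjusted p = 0.0410), with the widest SE of the called partner genes and an adjusted p of up to 0.136 in the alternatives that kept all 4 libraries. Of the transducers, SMAD2, SMAD3, SMAD4 and SMAD5 had an adjusted p of 0.271 or more, and SMAD1 had 1 fragment in all. Of the 19 genes listed around ENG, 14 were tested, of which 1 was called higher and 1 lower (3.05% and 1.69% of all genes), 2 had an adjusted p under 0.05 upward and 2 downward, beside 16.3% and 10.5% of all genes, and the median log2 fold change was −0.05.

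Endothelial markers moved with ENG, which endothelium shares. CDH5, the cadherin of endothelial junctions, measured 0.733 and 0.628 FPKM in TF1-BA and 3.28 and 3.40 FPKM in TF1-BAR (log2 fold change 1.70, adjusted p = 0.00409). TIE1 had a log2 fold change of 0.67 (adjusted p = 0.00705) and TEK of 0.89 (adjusted p = 0.00648), so that all 3 tested markers of the 5 were higher by the adjusted p, beside 16.3% of all genes, and 1 of them, CDH5, met the fold threshold as well, beside 3.05%. The summed level of the 5 was 93.9 and 99.5 FPKM in TF1-BA and 152 and 165 FPKM in TF1-BAR, most of it TIE1, while the defining markers VWF and CLDN5 stayed between 0.0640 and 0.162 FPKM in all libraries. TEK is also on the list of other stem and progenitor surface markers given below, and is counted in both. The part of endothelial markers in the difference of ENG was not tested.

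**Figure D3:**
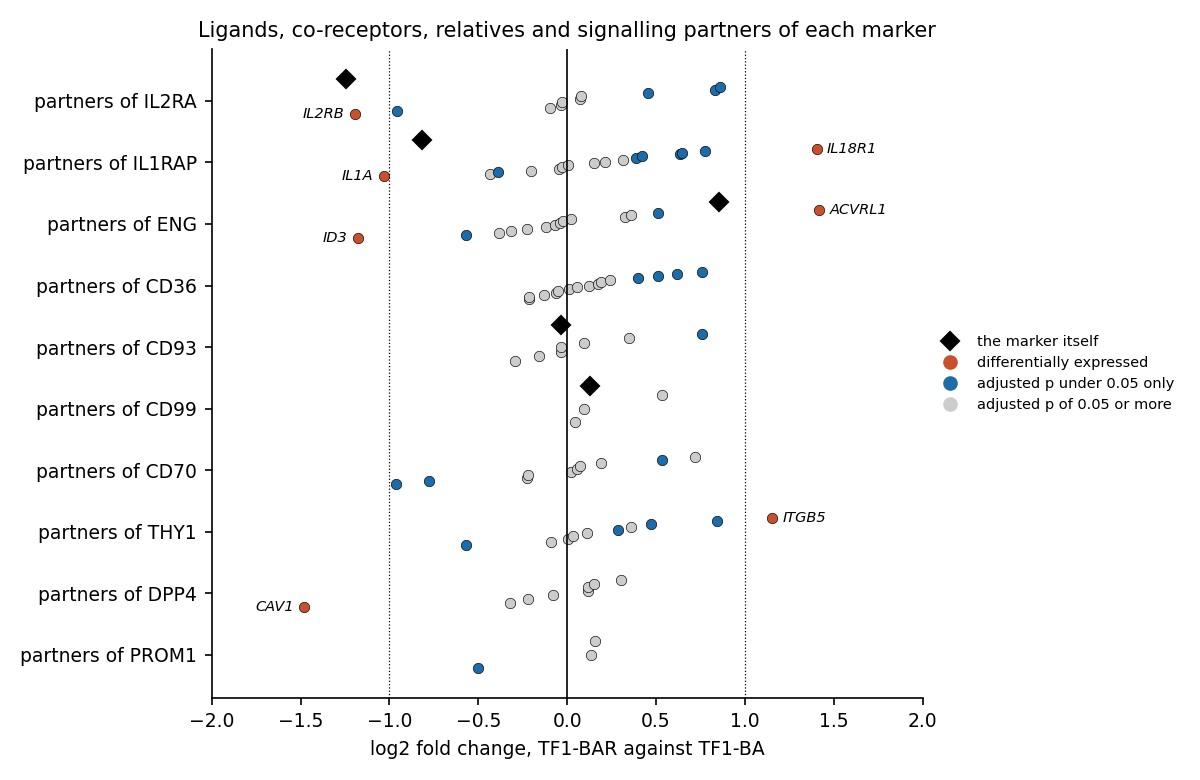
Log2 fold change of TF1-BAR against TF1-BA (horizontal axis) of the tested partner genes of each of the 10 surface markers (circles, 1 row per marker), with the marker itself as a black diamond where it was tested. Red circles were differentially expressed, blue circles had an adjusted p under 0.05 only, grey circles neither, and dotted lines mark a log2 fold change of 1 in either direction. The named partners past both thresholds are IL18R1, ACVRL1 and ITGB5 on the right and IL2RB, IL1A, ID3 and CAV1 on the left.

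CD36 (ENSG00000135218, plus strand of chromosome 7, 80369575 to 80679277, 15 exons) was scarce, at 0.411 and 0.416 FPKM in TF1-BA and 0.0690 and 0.0431 FPKM in TF1-BAR, from 75, 65, 11 and 7 fragments. Every library exceeded the floor of 3 fragments, and the groups did not overlap. Relative to library size, TF1-BA had 7.39 times the rate of TF1-BAR (exact 95% interval 4.51 to 12.8, which covers counting error only). It was not among the genes of the main test. limma voom on the fragments gave a log2 fold change of −2.85 (SE 0.362, adjusted p = 0.000108) and called CD36 lower together with IL2RA, although CD36 passed the filter of that fit only through TF1-BA, where 9.86% of the 16153 genes of that fit were called, 6.86% higher and 3.0% lower. Without a filter on the FPKM scale the log2 fold change was −0.72 (adjusted p = 0.0499), a value that the pseudocount of 0.5 holds down. The median of chromosome 7 was 0.08, and SEMA3C, a semaphorin 63.3 kb away, was higher (log2 fold change 0.52, adjusted p = 0.0157), whereas GNAI1 on the other side, 150.2 kb away, had a log2 fold change of −0.25 (adjusted p = 0.133).

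Of the genes listed around CD36, those that passed the adjusted p were higher in TF1-BAR. FABP5, which carries fatty acids in the cytosol, rose from 4.80 and 3.95 FPKM to 6.63 and 6.23 FPKM (log2 fold change 0.51, adjusted p = 0.0328), and SLC27A2, which activates and imports them, from 13.5 FPKM in both TF1-BA libraries to 16.6 and 19.5 FPKM (log2 fold change 0.40, adjusted p = 0.0407, and 0.0629 with the chromosome medians aligned). FABP3 and SLC27A1 had log2 fold changes of −0.21 and −0.13 (adjusted p = 0.473 and 0.429). RXRA, the nuclear receptor that pairs with the PPAR regulators of lipid genes, had a log2 fold change of 0.76 (adjusted p = 0.0121), and TLR4, which signals with CD36, of 0.62 (adjusted p = 0.0207). The class B scavenger receptors SCARB1 and SCARB2, its closest relatives, had log2 fold changes of 0.24 and 0.12 (adjusted p = 0.0757 and 0.339), and the ligand THBS1 of −0.05 (adjusted p = 0.783). Of the 15 tested genes around CD36, 0 were called by limma and 0 by limma voom. By limma, 6 had an unadjusted p and 4 (26.7%) an adjusted p under 0.05, all upward. Of all genes, 26.9% had such an adjusted p in either direction and 16.3% upward. The median log2 fold change of the 15 was 0.12.

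CD93 (ENSG00000125810, minus strand of chromosome 20, 23079349 to 23086340, 2 exons) measured 26.7 and 28.6 FPKM in TF1-BA and 26.7 and 27.2 FPKM in TF1-BAR. The groups overlapped. The means were 27.6 ± 1.32 FPKM (SD, n = 2) and 26.9 ± 0.321 FPKM (SD, n = 2), a log2 fold change of −0.04 (SE 0.0673, adjusted p = 0.723) whose sign turned when FPKM were rescaled to TPM (0.03) or without the second TF1-BA library (0.01). It lies on the chromosome with the highest median, 0.39 over 440 tested genes, of which 85.9% were above 0, and 6 of the 9 tested genes within 1 Mb had an adjusted p under 0.05 upward and 0 downward, beside 16.3% and 10.5% of all genes. Relative to that median CD93 was lower: with the chromosome medians aligned the log2 fold change was −0.44 (SE 0.0664, adjusted p = 0.0159).

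THBD, thrombomodulin, a relative of CD93 in the same protein family and its neighbour at 29.6 kb, behaved alike, with 10.8 and 12.0 FPKM in TF1-BA and 10.4 and 11.7 FPKM in TF1-BAR (log2 fold change −0.04, adjusted p = 0.797, and −0.44, adjusted p = 0.0272, with the medians aligned). NXT1, an mRNA export factor 264.4 kb away on the other side, followed the chromosome upward (log2 fold change 0.69, adjusted p = 0.0133). MMRN2, a matrix ligand of CD93, rose from 1.83 and 1.76 FPKM to 3.65 and 3.14 FPKM (log2 fold change 0.76, adjusted p = 0.0131), against the direction of chromosome 10 on which it lies. It was the only one of the 7 tested genes around CD93 with an adjusted p under 0.05, where 26.9% of all genes had one, the median was −0.03, and MSN (moesin), which ties the tail of CD93 to actin, was the most abundant of them, at 220 and 180 FPKM on average (log2 fold change −0.29, adjusted p = 0.05003).

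CD99 (ENSG00000002586, plus strand of the X chromosome, 2691179 to 2741309, 10 exons) was the most abundant member in TF1-BA, with 51.2 and 51.6 FPKM there and 53.8 and 58.9 FPKM in TF1-BAR. Its groups did not overlap, but the gap was small beside the spread of the TF1-BAR libraries. Means of 51.4 ± 0.307 FPKM (SD, n = 2) and 56.3 ± 3.56 FPKM (SD, n = 2) gave a log2 fold change of 0.13 (SE 0.0687, adjusted p = 0.217). No alternative brought it past the threshold, the adjusted p lying between 0.0772 and 0.528. The gene lies in the pseudoautosomal region beside CD99P1, a pseudogene 34 kb away from which its reads may not be fully separated (log2 fold change 0.28, adjusted p = 0.251). The relative CD99L2 and the receptors PILRA and PILRB, which bind CD99, had log2 fold changes of 0.09, 0.53 and 0.04, all with an adjusted p of 0.138 or more, and XG, the blood group relative next to it, lay under the filter.

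CD70 (ENSG00000125726, minus strand of chromosome 19, 6583183 to 6604103, 3 exons) had 3 and 4 fragments in TF1-BA and 1 and 2 in TF1-BAR, a ratio of 2.22 (exact 95% interval 0.506 to 13.3, counting error only) that does not separate the lines. Its receptor CD27 was also under the filter, with 10 and 6 against 11 and 12 fragments. TNFSF9, the 4-1BB ligand and neighbour of CD70 at 47.3 kb, was measurable and lower, at 5.63 and 6.68 FPKM in TF1-BA and 2.74 and 3.06 FPKM in TF1-BAR (log2 fold change −0.96, adjusted p = 0.00911). TNFSF13B (BAFF) rose (log2 fold change 0.53, adjusted p = 0.0182), and NFKB2, a subunit of the alternative NF-κB pathway on chromosome 10, fell from 30.2 and 30.04 FPKM to 15.7 and 19.1 FPKM (log2 fold change −0.78, adjusted p = 0.0114, but −0.42 and 0.0536 with the chromosome medians aligned). Of the 10 tested genes around CD70, 0 were called, 5 had an unadjusted p under 0.05 (2 upward), and 1 rose and 2 fell by the adjusted p, beside 16.3% and 10.5% of all genes. limma voom called 2 of the listed genes higher (MAP3K14 and TNFSF4, the latter passing the filter of 10 fragments only through TF1-BAR) and TNFSF9 lower, beside 6.86% and 3.0% of all genes of that fit. The median log2 fold change was 0.04.

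PROM1 (ENSG00000007062, minus strand of chromosome 4, 15963076 to 16084378, 28 exons) had 1 fragment in the first TF1-BAR library and 0 in the other 3, under the floor in all 4, so that no fold is given and an expression of up to 0.0261 FPKM, the level of 3 fragments in the shallowest library, was not detectable. Its relative PROM2 was no higher than 0.0209 FPKM. The nearest tested gene, TAPT1, 76.1 kb away, had a log2 fold change of −0.09 (adjusted p = 0.459). CD38, the nearest on the other side at 109.8 kb and the marker whose absence defines stem cells in the CD34+ fraction, was readily measured and called lower, from 5.13 and 5.35 FPKM to 1.72 and 1.87 FPKM (log2 fold change −1.32, adjusted p = 0.00409).

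For DPP4 and THY1, the partner genes alone can be described. CAV1 (caveolin-1), a binding partner of DPP4, fell from 2.77 FPKM in both TF1-BA libraries to 0.606 and 0.747 FPKM in TF1-BAR (log2 fold change −1.48, SE 0.131, adjusted p = 0.00565) and was the 1 gene called among the 8 tested around DPP4, where 4.75% of all genes were called. ADA, the adenosine deaminase that DPP4 anchors at the surface, had a log2 fold change of 0.12 (adjusted p = 0.344), and the relatives DPP8 and DPP9 of 0.12 and 0.30 (adjusted p = 0.480 and 0.0686). CXCR4, the receptor of the chemokine that DPP4 inactivates, had 1 fragment in all.

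Among the 10 integrins and other ligands of THY1, all tested, ITGB5 was the 1 gene called, higher (3.05% of all genes), from 0.181 and 0.171 FPKM to 0.915 and 1.09 FPKM (log2 fold change 1.15, SE 0.199, adjusted p = 0.0189), having passed the filter through its TF1-BAR level. ITGAM, the chain of the myeloid integrin Mac-1, rose from 29.3 and 30.3 FPKM to 48.4 and 60.2 FPKM (log2 fold change 0.85, adjusted p = 0.0114), and its partner ITGB2 had a log2 fold change of 0.29 (adjusted p = 0.0355, and 0.0846 with the chromosome medians aligned). ITGB1, the most abundant integrin chain of the list, on chromosome 10, was lower, at 89.8 and 89.4 FPKM against 60.3 and 59.9 FPKM (log2 fold change −0.57, adjusted p = 0.00605, but −0.21 and 0.0440 with the chromosome medians aligned). ITGB3 and ITGAV, the chains of the integrin best known to bind THY1, had log2 fold changes of 0.03 and 0.36 (adjusted p = 0.840 and 0.0941).

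Over all 136 partner genes, 124 were in the table and 96 were tested. Of these, 3 were called higher (IL18R1, ACVRL1 and ITGB5) and 4 lower (IL2RB, IL1A, CAV1 and ID3), beside the 3.05% and 1.69% of all genes. ACVRL1 and ITGB5 passed the filter only through their TF1-BAR level. By the adjusted p alone 21 were higher and 11 lower, beside 16.3% and 10.5% of all genes, and the median log2 fold change of 0.06 was near the 0.07 of all genes. Each of the 7 had an adjusted p of 0.05 or more without the first TF1-BA library, from 0.0569 for IL18R1 to 0.176 for ID3, and without the second, from 0.0573 for IL18R1 to 0.159 for ID3. Without the second TF1-BAR library ACVRL1 and ITGB5 also had an adjusted p above 0.05, at 0.0622 and 0.0708. Of the 32 partner genes with an adjusted p under 0.05, all kept their direction in every alternative that tested them, but 0 kept that p without either of the TF1-BA libraries, 13 without the second TF1-BAR library, 27 without the first, and 9 without a filter on low values.

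**Figure D4:**
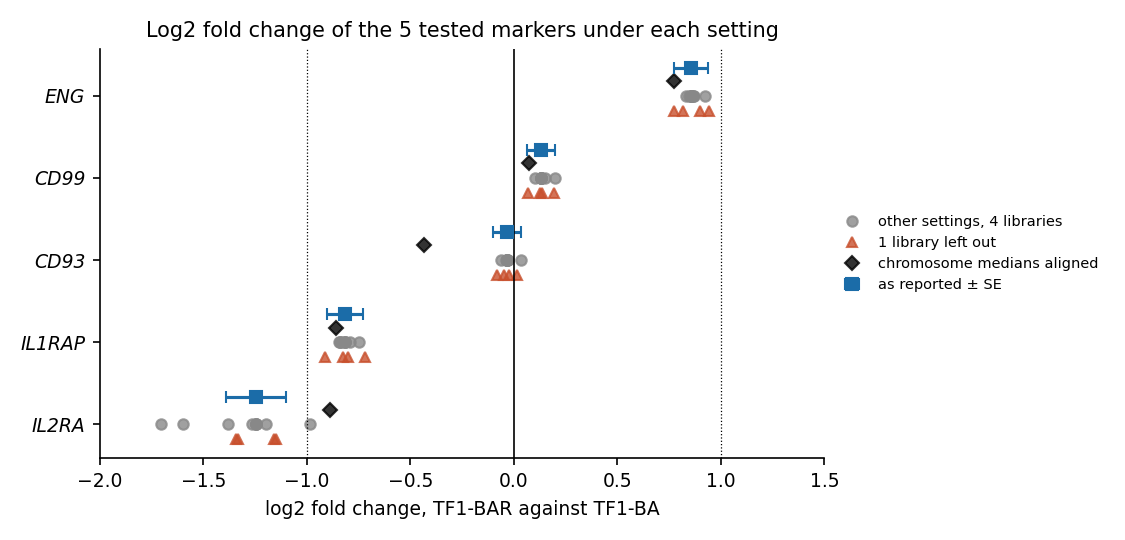
Log2 fold change of TF1-BAR against TF1-BA (horizontal axis) of the 5 tested surface markers as reported (blue squares, ± SE), in the other settings with all 4 libraries (grey circles), with 1 library left out (red triangles) and with chromosome medians aligned (black diamonds). Dotted lines mark a log2 fold change of 1 in either direction. IL1RAP and IL2RA stay below 0 and ENG above 0 in every setting, IL2RA ranges from −1.71 to −0.89 across the threshold, and CD93 stays near 0 except with the medians aligned, at −0.44.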

How the data were processed

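RNA of TF1-BA and TF1-BAR cells, 2 libraries each, was extracted with TRIzol, prepared with the NEBNext Ultra kit and sequenced as 150-bp paired ends. Per the labels and methods, the authors mapped reads to GRCh38 with TopHat2 2.0.13 and used Cufflinks and Cuffdiff 2.2.0. For differential expression the methods name DESeq2. The deposited values are FPKM per gene and library, not log-transformed. The annotation release is not given in the sources used here. Samples were grouped by the labels, columns matched by name, and 26 symbols turned into dates were restored from their identifiers.

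The lines were compared on log2(FPKM + 0.5) by lmFit and trended eBayes of limma 3.58.1 (R 4.3.3). Genes averaging 0.5 FPKM or more over the libraries were tested, 15519 in all, and p-values were adjusted over all of them by the Benjamini-Hochberg method. Calls used the thresholds of the study, a log2 fold change of 1 or more in size with an adjusted p under 0.05. The study applied them to DESeq2 results, a different test, so the calls are not the same as those of the study. The scripts were tested on simulated data.

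Fragments were recovered from the FPKM steps. All 30853 genes above 0 came out whole, within 0.001 fragments and slightly more for large counts. For 14220 this was at their GENCODE 44 exon length. For the other 16633 a length was searched until the values came out whole, so that this outcome is no check there. Of 300 genes whole at the GENCODE 44 length, 0 stayed whole at it with wrong library sizes, which does not bear on the fitted genes. The recovered fragments entered limma voom (genes with a mean of at least 10), which called 1593 of 16153 genes. The floor was 3 fragments, and intervals and floors cover counting error only. Promoters were read from RefSeq (GRCh38.p14), where 6 motifs were searched.

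The named genes were all members, the called genes and the most abundant or most changed gene of each partner list, direct ligands, co-receptors and closest relatives, and the nearest tested neighbours; JAK and STAT genes and other members of the lists named beyond that were chosen after their values were seen. Some genes of the lists are not reported here. Members and lists were chosen with earlier results of these data known. Alternatives were the pseudocount, the filter, the scaling (upper quartile, TPM, quantile), eBayes without the trend, a replicate block, voom, no fold threshold, leaving out each library, and, chosen after seeing the data, alignment of chromosome medians.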

Additional observations from a re-analysis of the deposited data

How the results depend on the processing

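ENG, IL1RAP and IL2RA kept their direction and an adjusted p under 0.05 in each of the 11 alternatives that used all 4 libraries, and CD99 had an adjusted p of 0.0772 or more in all 15. Without 1 library, where a lone sample is assumed to vary like the other line, log2 fold changes ranged from −1.34 to −1.15 for IL2RA, −0.91 to −0.72 for IL1RAP, 0.77 to 0.94 for ENG and −0.084 to 0.0126 for CD93, with adjusted p up to 0.0760 for IL2RA, 0.0740 for IL1RAP and 0.0674 for ENG. CD93 turned positive as TPM (0.0318) and without the second TF1-BA library (0.0126), and passed the threshold with chromosome medians aligned (−0.44). Members called lower, 1 in the report, were 0 with a pseudocount of 1 FPKM, 0 with chromosome medians aligned, 2 by limma voom, 2 without the fold threshold and 0 to 1 without 1 library, and those called higher, 0 in the report, were 1 without the fold threshold. Partner genes called higher, 3 in the report, were 8 by voom, 21 without the fold threshold and 0 to 4 without 1 library. Partner genes called lower, 4 in the report, were 2 with a pseudocount of 1 FPKM, 1 without a filter, 8 by voom, 11 without the fold threshold and 0 to 5 without 1 library. The causes were not tested. Over all genes, 737 were called, 487 with a pseudocount of 1 FPKM, 1593 by voom, 4167 without the fold threshold, and 144, 42, 783 and 427 without TF1-BA 1, TF1-BA 2, TF1-BAR 1 and TF1-BAR 2.

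With the replicate number as a block, no call of a member or partner gene changed, IL2RA, IL1RAP and ENG having an adjusted p of 0.0195, 0.0145 and 0.0149, with 755 genes called in all. By the adjusted p alone, 29 of 32 partner genes stayed under 0.05, and CISH (0.0545), MYD88 (0.0664) and ITGB2 (0.05001) did not. The block rests on 2 pairs whose deviations correlated at 0.0646 over 15519 genes, and the labels give no shared batch. At these depths CD70 and PROM1 could not be compared between the lines.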

Other observations

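Among 27 other surface markers of stem and progenitor cells, 23 were tested, and 4 were called higher and 2 lower in TF1-BAR, beside 3.05% and 1.69% of all genes. KIT, the stem cell factor receptor, with a log2 fold change of 1.12 (adjusted p = 0.00409), ESAM, an adhesion molecule of stem cells and endothelium, with 1.10 (adjusted p = 0.0103), and CD34 were among those called higher. CD52 (log2 fold change −1.10, adjusted p = 0.00547) and CD38 were called lower. ESAM and CD52 fell short of the fold threshold in at least 1 alternative that kept all 4 libraries, at 0.99 and −0.95. PROCR, the protein C receptor, rose by 0.97 on the log2 scale (adjusted p = 0.00446), just under the fold threshold, and by 0.57 with the chromosome medians aligned (it lies on chromosome 20). CD69 fell by 0.60 (adjusted p = 0.0131). By the adjusted p alone 8 of the 23 were higher and 3 lower, beside 16.3% and 10.5% of all genes, with a median log2 fold change of 0.07, the same as that of all genes. CD34, KIT and CD38 were known to differ when the list was made.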
